A study of Mus musculus with 6 samples.

Results

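The genes examined here bind, make, sense and remove retinoic acid. They were 9 named genes of the deposited count table, found by gene symbol among 55471 genes, and 8 of the 9 passed the filter on low counts that left 13826 genes for testing. They comprise the binding proteins Crabp1 and Crabp2, the receptors Rara, Rarb and Rarg, the synthesis enzymes Adh7, Aldh1a2 and Aldh1a3, and the clearance enzyme Cyp26b1. They were chosen with the difference between TCKO and WT already known, so their levels and fold changes are a description, and no p-value is given for them.

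Poly(A) RNA was sequenced from primary osteoblasts, bone-forming cells grown for 3 days after release from the skull caps of C57BL/6 mice aged 3 days. The TCKO libraries came from mice with the floxed alleles Tet1fl/fl, Tet2fl/fl and Tet3fl/fl together with Prx1-Cre, a Cre recombinase active in limb and part of the skull mesenchyme. The Tet genes encode enzymes that oxidise methylated cytosine. The WT libraries are labelled wild type, with no further allele given. There were 3 libraries per genotype, and nothing in the labels says whether the libraries of a genotype came from separate mice or cultures, so each error below measures only the spread between these libraries.

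Total counts ranged from 8019999 to 10177214 per library. Replicates 1 and 2 of each genotype were very close (chi-square per degree of freedom 1.69 in WT and 2.04 in TCKO), whereas replicate 3 stood apart from both (16.5 to 23.3) and held a mitochondrial share of 2.22% and 2.47% against 1.11% to 1.24% elsewhere. TCKO replicate 3 was also the one library with the Xist RNA of female cells (4583 counts). Of the targeted genes, Tet1 had 51 to 68 counts in TCKO and 98 to 131 in WT, Tet2 had 121 to 161 and 132 to 213, and Tet3 had 622 to 795 and 452 to 611. These counts cover deleted and remaining exons alike, so directions rest on the labels. Markers of osteoblasts were present in every library, with 6 of 6 detected and a summed level of 30190 to 32550 CPM (counts per 1e+06, scaled with TMM factors) in WT and 14260 to 22410 CPM in TCKO. Nearly all of that sum was Col1a1 and Col1a2, with means of 22334 and 8800 CPM in WT. Alpl and Ibsp had WT means of 30.4 and 5.52 CPM, so the sum describes mainly the 2 collagen genes. Of the 6 osteoblast markers, Runx2, Col1a1 and Alpl fell in TCKO (edgeR adjusted p under 0.05), Alpl by more than 2-fold. Because RNA was taken from whole cultures, fewer cells of a type and less RNA per cell cannot be told apart.

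Retinol, vitamin A, is oxidised first to retinal by alcohol and retinol dehydrogenases and then to retinoic acid by retinal dehydrogenases. Inside the cell retinoic acid is carried by CRABP proteins, bound in the nucleus by pairs of retinoic acid receptors (RAR) and retinoid X receptors (RXR), and degraded by CYP26 enzymes. In the skeleton the balance of synthesis and clearance is known to affect patterning, cartilage formation and the growth of the skull sutures.

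Promoter windows were read from RefSeq (GRCm38.p6), 250 bases before to 50 after an annotated start. They were found for 7 of the 9 genes (11 windows), not for Crabp2 and Aldh1a3. The windows of Crabp1, the gene with the highest fold change of the 9, and of Adh7, the one with the lowest, are shown because they differ in CpG dinucleotides, the substrate context of the TET enzymes. Capitals mark each CpG. The Crabp1 window lies at chr9:54764498-54764797 on the plus strand and that of Adh7 at chr3:138217523-138217822 on the plus strand.
Crabp1: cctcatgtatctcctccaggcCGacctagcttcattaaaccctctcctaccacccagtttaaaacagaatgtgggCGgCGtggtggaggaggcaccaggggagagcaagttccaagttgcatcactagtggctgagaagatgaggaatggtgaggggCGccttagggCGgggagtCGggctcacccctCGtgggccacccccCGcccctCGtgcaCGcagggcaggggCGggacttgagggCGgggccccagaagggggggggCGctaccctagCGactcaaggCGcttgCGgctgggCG
Adh7: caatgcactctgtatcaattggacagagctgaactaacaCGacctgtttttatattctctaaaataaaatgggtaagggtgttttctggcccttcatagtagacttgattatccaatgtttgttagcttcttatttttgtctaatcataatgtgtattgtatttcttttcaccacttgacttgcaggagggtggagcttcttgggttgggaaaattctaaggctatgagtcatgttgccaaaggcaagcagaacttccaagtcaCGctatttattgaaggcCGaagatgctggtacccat

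The Crabp1 window held 17 CpG dinucleotides and the Adh7 window 3, where the median of 32851 windows was 7 and the quartiles were 3 and 20. Of the other genes, Aldh1a2 had the most CpG-dense window, with 50 (percentile 99.2 of all windows), and Cyp26b1 had 9. The Rara windows held 5 to 21 and the Rarg windows 10 and 12. The Rarb window held 17, as many as that of Crabp1. DNA methylation was not analysed here.

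**Figure D1:**
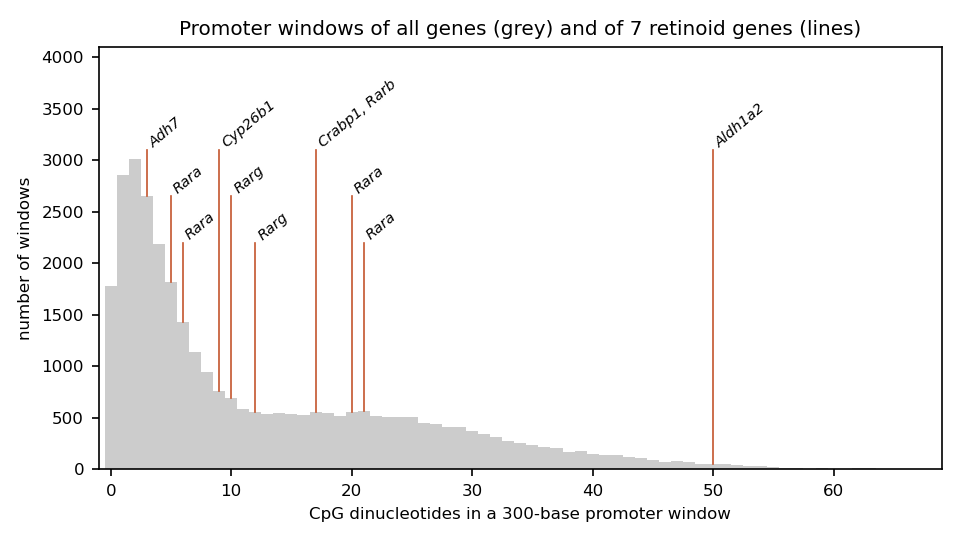
CpG dinucleotides per 300-base promoter window (x axis) against the number of windows (y axis) for all 32851 windows (grey bars), with vertical lines at the windows of 7 retinoid genes. Adh7 sits at 3 CpG, near the peak of the distribution, Crabp1 and Rarb at 17, and Aldh1a2 at 50, in its far right tail.

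Retinoic acid receptors bind direct repeats of a 6-base half-site. The windows were searched on both strands for a pair of half-sites on the same strand, each of them the motif AGGTCA, its variant the motif AGTTCA, or the form of either that begins with G (the motif GGGTCA and the motif GGTTCA), and separated by 1, 2 or 5 bases. The motifs do not overlap within a pair, and a single half-site was in 43.7% of all windows. Such a pair occurred in 0.588% of all windows, and a pair with a spacer of 5 in 0.0974%. Among the 11 windows of the retinoid genes, only that of Rarb held one, with a spacer of 5, from 53 to 37 bases before the start (chr14:16575513-16575529). The Rarb window (chr14:16575427-16575726, minus strand) is shown with the 2 half-sites of the pair in capitals. A further single half-site in the window is left in lower case. Its start lies within the deposited gene, 243680 bp downstream of the outermost start.
Rarb: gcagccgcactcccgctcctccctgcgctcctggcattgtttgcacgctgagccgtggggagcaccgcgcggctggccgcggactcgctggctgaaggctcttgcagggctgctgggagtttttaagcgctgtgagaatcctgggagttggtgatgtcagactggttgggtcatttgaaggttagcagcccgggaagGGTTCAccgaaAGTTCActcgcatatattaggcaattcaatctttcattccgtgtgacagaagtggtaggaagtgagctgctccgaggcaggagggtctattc

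Among 63 other retinoid pathway and response genes, described further below, 50 had a window, and 2 of these held such a pair. Cyp26a1, a retinoic acid hydroxylase that is itself a classical target of the receptors, had one with a spacer of 5 on the opposite strand (chr19:37697776-37697792), and Bco1, which cleaves beta-carotene, had one with a spacer of 1 (chr8:117095809-117095821).
Cyp26a1: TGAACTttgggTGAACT
Both genes with a spacer of 5, Rarb and Cyp26a1, were near the detection limit in WT and in TCKO, with at most 10 and at most 1 counts in any library.

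Both binding proteins were higher in every TCKO library than in any WT library, and had the highest fold changes of the 9 genes. Crabp1 (ENSMUSG00000032291, chromosome 9, 54764748 to 54773110, GRCm38), a cytosolic carrier of retinoic acid, was counted 1091, 1081 and 357 times in TCKO replicates 1, 2 and 3, against 24, 31 and 20 times in the WT replicates. On the CPM scale the TCKO values were 124.5, 134.4 and 40.05, and the WT values 2.91, 3.09 and 2.42. All TCKO libraries lay far above all WT libraries, and TCKO replicate 3 was the lowest of them. Its mean level of 99.7 ± 51.9 CPM in TCKO compared with 2.81 ± 0.345 CPM in WT (SD, n = 3). The fitted log2 fold change, 5.13 ± 0.52 (SE), ranked 9 from the highest among 13826 tested genes.

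Crabp2 (ENSMUSG00000004885, chromosome 3, 87948666 to 87953376), the paralogue that delivers retinoic acid to the receptors, gave 267, 218 and 78 counts in the TCKO libraries, against 21, 30 and 19 in WT. The genotypes did not overlap, and TCKO replicate 3 was again the lowest TCKO library. It averaged 22.1 ± 11.7 CPM in TCKO against 2.61 ± 0.351 CPM in WT, and the fitted log2 fold change was 3.06 ± 0.48. TCKO replicate 3 held 0.309 times the mean Crabp1 level of TCKO replicates 1 and 2 and 0.304 times their Crabp2 level, so the 2 genes differed alike among the TCKO libraries. Their coefficients of variation in TCKO, 52.0% and 52.9%, were far above the 3.44% and 7.30% that counting alone gives. Per gene length (RPKM, CPM divided by the gene length in kilobases), Crabp1 made up 63.0% to 65.3% of the summed Crabp1 and Crabp2 level in WT and 87.1% to 89.1% in TCKO. That share in TCKO replicate 3, 88.3%, lay between those of the other TCKO libraries although its level was lower.

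The receptors differed little by comparison. Rarg (ENSMUSG00000001288, chromosome 15, 102234938 to 102257517), the receptor known to predominate in cartilage and skin, gave 1241, 1244 and 1329 counts in the TCKO libraries, against 1634, 1892 and 1720 in WT. Every TCKO library lay below every WT library, at 148 ± 6.51 against 198 ± 9.86 CPM (SD, n = 3), and the log2 fold change was -0.42 ± 0.07. Rara (ENSMUSG00000037992, chromosome 11, 98927818 to 98974942), the most widely expressed receptor, gave 232, 225 and 321 counts in the TCKO libraries, against 218, 267 and 226 in WT. The genotypes overlapped, and the log2 fold change of 0.17 ± 0.13 came mainly from TCKO replicate 3, without which it was 0.03.

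Rarb (ENSMUSG00000017491, chromosome 14, 16430839 to 16819156), the receptor gene that retinoic acid itself induces in many tissues, gave 10, 4 and 4 counts in the TCKO libraries, against 6, 1 and 3 in WT. It did not pass the low-count filter, and its genotypes overlapped, so a difference was not detectable at this depth. Its exons overlap those of Top2b on the opposite strand, which had 7660 counts in all libraries together against 28 for Rarb, so even these counts are uncertain. Per gene length, Rarg made up 87.9% to 88.5% of the summed receptor level in WT and 80.8% to 84.8% in TCKO. Rara made up 11.4% to 12.1% and 15.0% to 19.0%, and Rarb at most 0.548% in any library. The summed receptor level was 52.8 ± 2.43 RPKM in WT and 41.9 ± 2.05 RPKM in TCKO, and the genotypes did not overlap.

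The synthesis enzymes went in both directions. Adh7 (ENSMUSG00000055301, chromosome 3, 138217760 to 138233382), a class IV alcohol dehydrogenase that oxidises retinol, gave 26, 23 and 24 counts in the TCKO libraries, against 220, 338 and 238 in WT. The TCKO libraries were all low and close together, at 2.84 ± 0.139 CPM against 29.7 ± 3.63 CPM in WT (SD, n = 3), and the fitted log2 fold change was -3.38 ± 0.15. Replicate 3 did not stand apart here, with log2 differences of -3.26 among replicates 1 and 2 and -3.32 for replicate 3.

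Aldh1a3 (ENSMUSG00000015134, chromosome 7, 66390890 to 66427517), a retinal dehydrogenase, was a low gene, with 53, 34 and 44 counts in the TCKO libraries against 11, 13 and 10 in WT. All TCKO libraries lay above WT, at 5.07 ± 0.919 against 1.28 ± 0.062 CPM, a log2 fold change of 1.97 ± 0.25. Aldh1a2 (ENSMUSG00000013584, chromosome 9, 71215789 to 71296243), the main retinal dehydrogenase of the early embryo, gave 12, 15 and 27 counts in the TCKO libraries, against 3, 17 and 4 in WT. WT replicate 2 lay above 1 TCKO library, so the genotypes overlapped. Its log2 fold change was 1.23 ± 0.57, and it ranged from 0.55 without replicate 3 of both genotypes to 2.26 without WT replicate 2. It was 0.85 without TCKO replicate 3 and 0.89 without WT replicate 1. The summed level of the Aldh1a2 and Aldh1a3 genes was 0.652 ± 0.328 RPKM in WT and 2.02 ± 0.346 RPKM in TCKO, a low level in both.

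Cyp26b1 (ENSMUSG00000063415, chromosome 6, 84571414 to 84593908), the hydroxylase that clears retinoic acid in developing skeleton, split the TCKO libraries. It gave 259, 207 and 838 counts in the TCKO libraries, against 987, 1161 and 758 in WT, which are 29.6, 25.7 and 94.0 CPM against 119.5, 115.9 and 91.9 CPM. TCKO replicates 1 and 2 lay far below every WT library, and TCKO replicate 3 lay just above WT replicate 3. The fitted log2 fold change was -1.13 ± 0.45, but replicates 1 and 2 alone gave a log2 difference of -2.08 and replicate 3 gave 0.03. Without TCKO replicate 3 the fold change was -1.97. Of the 127 tested genes with a difference at least as low as that of Cyp26b1 within replicates 1 and 2, 6 were above 0 within replicate 3. Cyp26b1 itself is counted in both numbers. Of the 598 tested genes at or under -1 within replicates 1 and 2, 46 (7.69%) were above 0 within replicate 3. The replicate 3 pair is 1 library per genotype, so that split could not be tested, and the sex of the cells and the replicate cannot be told apart in TCKO replicate 3.

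**Figure D2:**
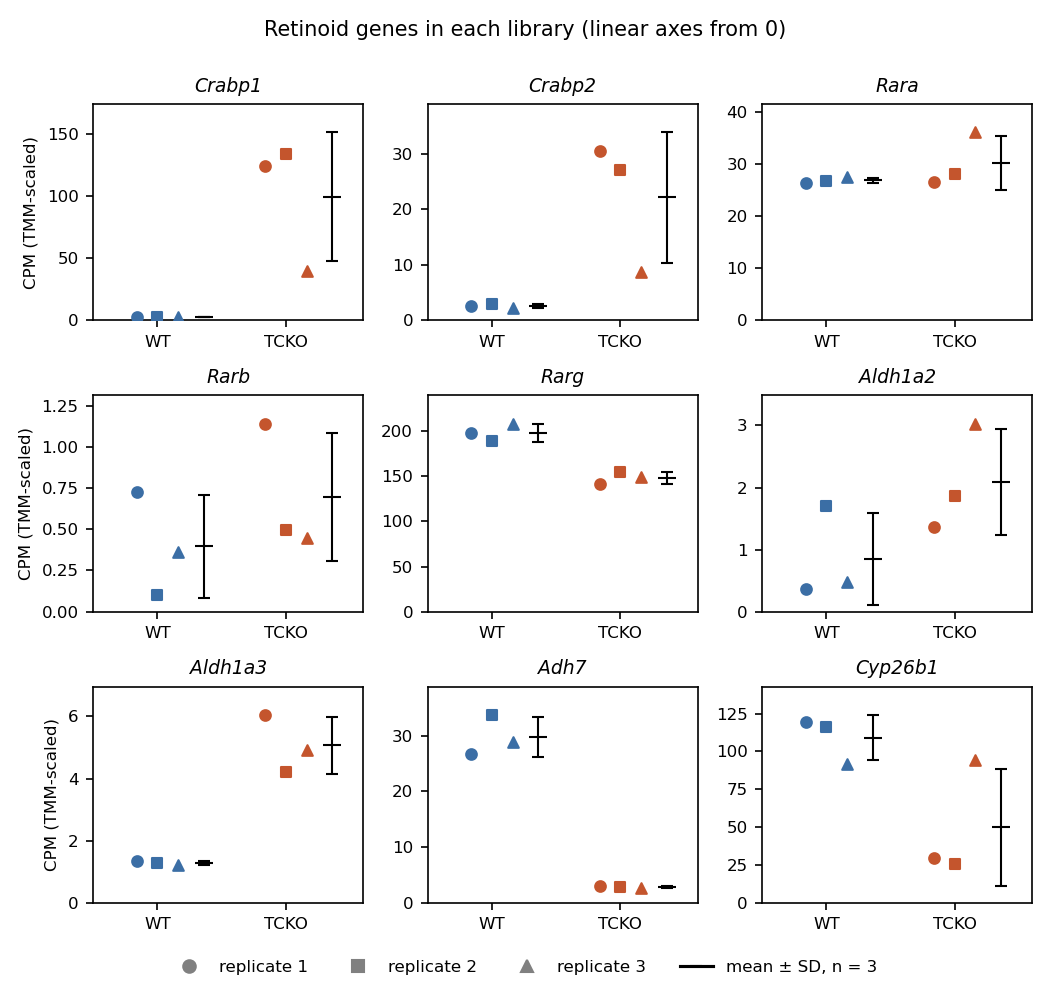
Level of each of the 9 genes in CPM (y axis, linear from 0, a separate scale per gene) in WT (blue) and TCKO (orange), with a marker shape per replicate and the mean ± SD of 3 libraries in black. Crabp1, Crabp2, Aldh1a3, Adh7 and Rarg show no overlap between genotypes, and TCKO replicate 3 of Cyp26b1, at 94.0 CPM, lies within the WT range.

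Of the 8 tested genes, Crabp1, Crabp2 and Aldh1a3 were called higher and Adh7 lower by the rule used across all genes (edgeR quasi-likelihood test, adjusted p under 0.05 and a fold change over 2). That rule called 3.16% of all tested genes higher, 3.19% lower and 6.35% in either direction. The CPM ranges of the genotypes did not overlap for 5 of the 8 genes, against 38.3% of all tested genes. The genes were chosen with this contrast known, and nothing is read from these shares. Crabp1 and Adh7 were called in all 16 fits run, Aldh1a3 in all 15 that tested it, and Crabp2 in 15 of 16, the exception being the fit with replicates 1 and 2 summed. Cyp26b1 was called lower without TCKO replicate 3, without replicate 3 of both genotypes and without the low-count filter. These fits reuse the same libraries or part of them. The counts of fits thus describe dependence on processing and add no support for genes chosen with the contrast known.

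**Figure D3:**
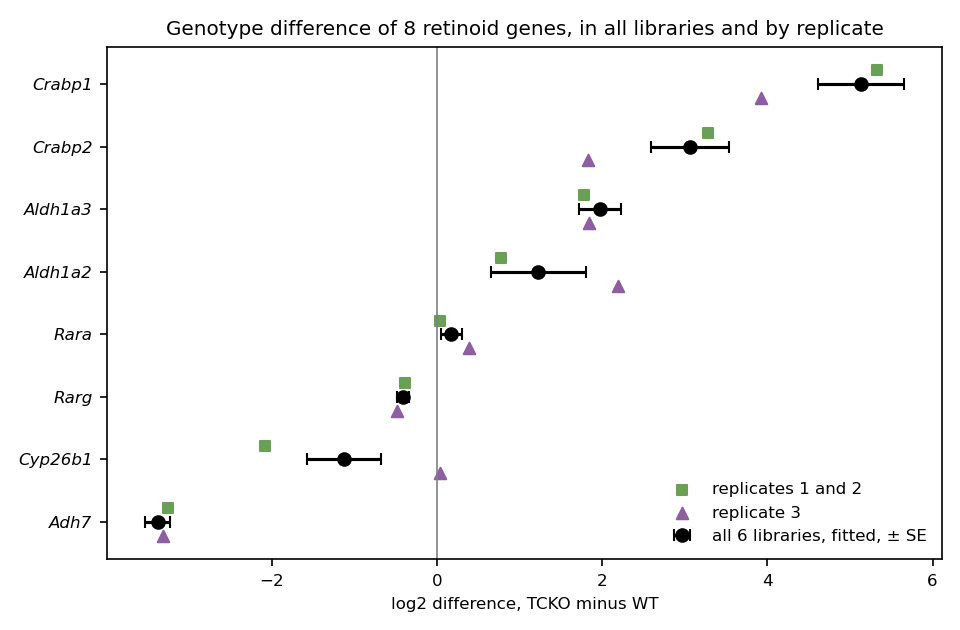
Log2 difference between TCKO and WT (x axis) for the 8 tested genes, as fitted over all 6 libraries with its SE (black), within replicates 1 and 2 (green squares) and within replicate 3 (purple triangles). Adh7 and Rarg gave nearly the same difference in both sets, Crabp1 and Crabp2 were smaller in replicate 3, and Cyp26b1 was -2.08 in one set and 0.03 in the other.

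Compared per gene length, the order of the genes changed between genotypes. In WT it ran from Rarg (46.6 ± 2.31 RPKM) through Cyp26b1 (20.4 ± 2.80), Adh7 (7.85 ± 0.958), Rara (6.14 ± 0.119), Crabp1 (3.50 ± 0.430) and Crabp2 (1.98 ± 0.265) to Aldh1a2, Aldh1a3 and Rarb, all under 1 RPKM. Neighbours in that order did not overlap over their 3 libraries, apart from Aldh1a2 and Aldh1a3. In TCKO Crabp1 came first (124 ± 64.7 RPKM), ahead of Rarg (34.8 ± 1.53). Crabp2, Cyp26b1 and Rara followed, with overlapping ranges from Crabp2 to Cyp26b1 and from Cyp26b1 to Rara, and then Aldh1a3, Aldh1a2 and Adh7, again with overlap between neighbours. Rarb was last in both. Among all tested genes ordered by RPKM, Crabp1 moved from position 8722 in WT to 413 in TCKO, and Adh7 from 5700 to 12347.

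**Figure D4:**
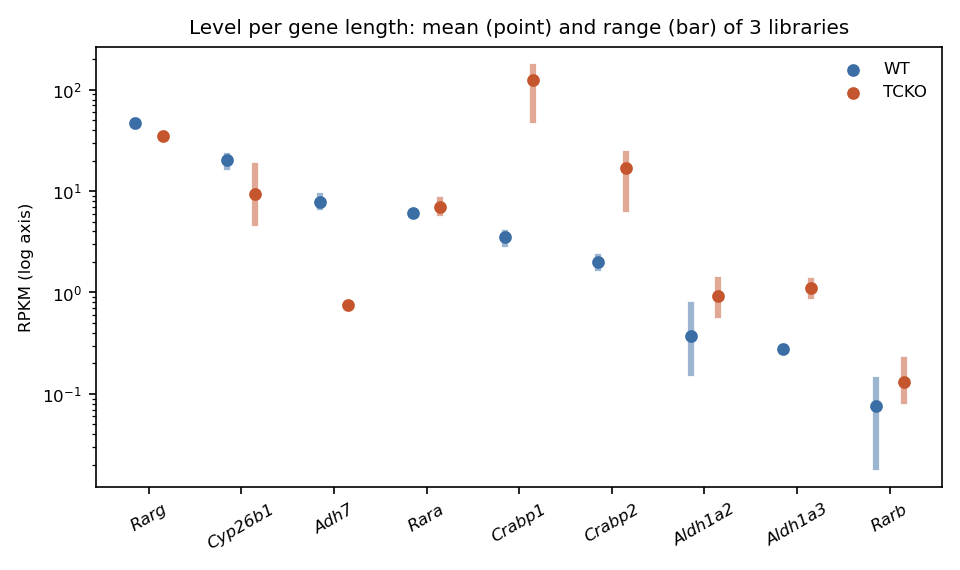
Level per gene length in RPKM (y axis, log scale) of the 9 genes in WT (blue) and TCKO (orange), ordered by WT level, with the mean as a point and the range over 3 libraries as a bar. Crabp1 lies between Rara and Crabp2 in WT at 3.50 RPKM and first in TCKO at 124 RPKM, while Rarg stays high in both.

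The genes whose pattern over the 6 libraries was most like that of Crabp1 were Dgkk, Scn7a and Tac1, with a root mean square difference of 0.343, 0.398 and 0.550 in centred log2 CPM. In TCKO all of these were lowest in replicate 3, as for Scn7a with 43.8, 38.2 and 23.2 CPM, and in WT Dgkk had 0 counts. They were picked for likeness over these same libraries, so a low replicate 3 follows largely from the choice. The same holds for the genotype difference of the genes nearest to Adh7. Nearest to Adh7 were Vit, Col2a1 and Podnl1, at 0.181, 0.227 and 0.246. Col2a1, the main collagen of cartilage, had 5728 to 7539 CPM in WT and 598 to 843 CPM in TCKO.

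To place these genes within the wider pathway, 54 other genes of retinoid transport, storage, oxidation, clearance and signalling were examined, of which 35 passed the low-count filter and 7 had 0 counts in every library. At an edgeR adjusted p under 0.05, 7 of the 35 were higher and 5 lower in TCKO (34.3%), against 17.7% of all tested genes (9.07% higher and 8.63% lower). With the fold cutoff, 0 were called higher and 3 lower (8.57% against 6.35% of all tested genes). Their median log2 fold change was -0.09, against 0.00 over all tested genes. The pathway list and the response list below were also chosen with earlier results of these data known. Their shares and adjusted p-values are thus a description, and nothing is read from the shares.

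Among binding and transport proteins, Fabp5, a fatty acid binding protein that also carries retinoic acid, rose from 38.4 ± 3.93 to 74.1 ± 7.13 CPM (SD, n = 3), by 0.95 ± 0.11 on the log2 scale (edgeR adjusted p = 0.00128). Rbp4, the retinol carrier of plasma, fell by 1.51 ± 0.38 on the log2 scale at 5 to 24 counts per library (edgeR adjusted p = 0.0301). Stra6, the RBP4 receptor, had at most 5 counts, and Lrat, which esterifies retinol for storage, had 0. Ttr, the plasma partner of RBP4, had 24 and 15 counts in TCKO replicates 1 and 2 and 0 in every other library, and was not tested.

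Among 13 tested oxidoreductases, 2 rose and 2 fell. Dhrs3, which reduces retinal back to retinol and is known as a gene that retinoic acid induces, had 38.4, 36.6 and 49.3 CPM in WT and 17.5, 14.8 and 10.7 CPM in TCKO. It was lower in every TCKO library, and fell by 1.53 ± 0.19 on the log2 scale (edgeR adjusted p = 0.00192). Dhrs9, a retinol dehydrogenase, fell as well (-1.13 ± 0.31, edgeR adjusted p = 0.0420). Akr1b8, an aldo-keto reductase with activity on retinal, rose from 23.6 ± 2.49 to 46.6 ± 3.86 CPM, by 0.98 ± 0.11 on the log2 scale (edgeR adjusted p = 0.00114), and Rdh13 rose by 0.35 ± 0.10 (edgeR adjusted p = 0.0452). Rdh10, the main retinol dehydrogenase of the embryo, differed by -0.13 ± 0.13 on the log2 scale (edgeR adjusted p = 0.545), and Aldh1a1, the remaining retinal dehydrogenase of the family, by -0.39 ± 0.34 (edgeR adjusted p = 0.471). Counts of Aldh1a1 may share reads with its near copy Aldh1a7.

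Apart from Cyp26b1, the genes listed under clearance were Cyp26a1 and Cyp26c1, with at most 1 count in any library, Cyp2s1, with at most 5, and Cyp1b1. Cyp1b1 was abundant, but it encodes a cytochrome P450 that can also oxidise retinol, a step of synthesis, so its level is no measure of clearance. It had 379, 446 and 367 CPM in WT and 352, 349 and 721 CPM in TCKO. As for Cyp26b1, TCKO replicate 3 was the highest TCKO library, here above every WT library, and the genotype difference did not pass (log2 fold change 0.26 ± 0.27, edgeR adjusted p = 0.565).

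Of the 8 tested receptors and partners, the orphan receptors of the COUP-TF family, which bind the same repeats as the retinoic acid receptors, were higher in TCKO. Nr2f2 had 33.8, 31.4 and 35.8 CPM in WT and 62.8, 61.3 and 75.6 CPM in TCKO, with no overlap, a rise of 0.98 ± 0.11 on the log2 scale (edgeR adjusted p = 0.000967). Nr2f1 rose by 0.70 ± 0.18 on that scale (edgeR adjusted p = 0.0353) and Nr2f6 by 0.35 ± 0.10 (edgeR adjusted p = 0.0433). Rxra, the heterodimer partner of the retinoic acid receptors, fell from 132 ± 7.49 to 96.7 ± 9.84 CPM (log2 fold change -0.44 ± 0.09, edgeR adjusted p = 0.0155), the same direction as Rarg. Rxrb differed by 0.12 ± 0.09 on the log2 scale (edgeR adjusted p = 0.418), and Rxrg had at most 2 counts. Among the coregulators, the coactivator gene Ncoa3 fell (-0.61 ± 0.11, edgeR adjusted p = 0.00896).

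**Figure D5:**
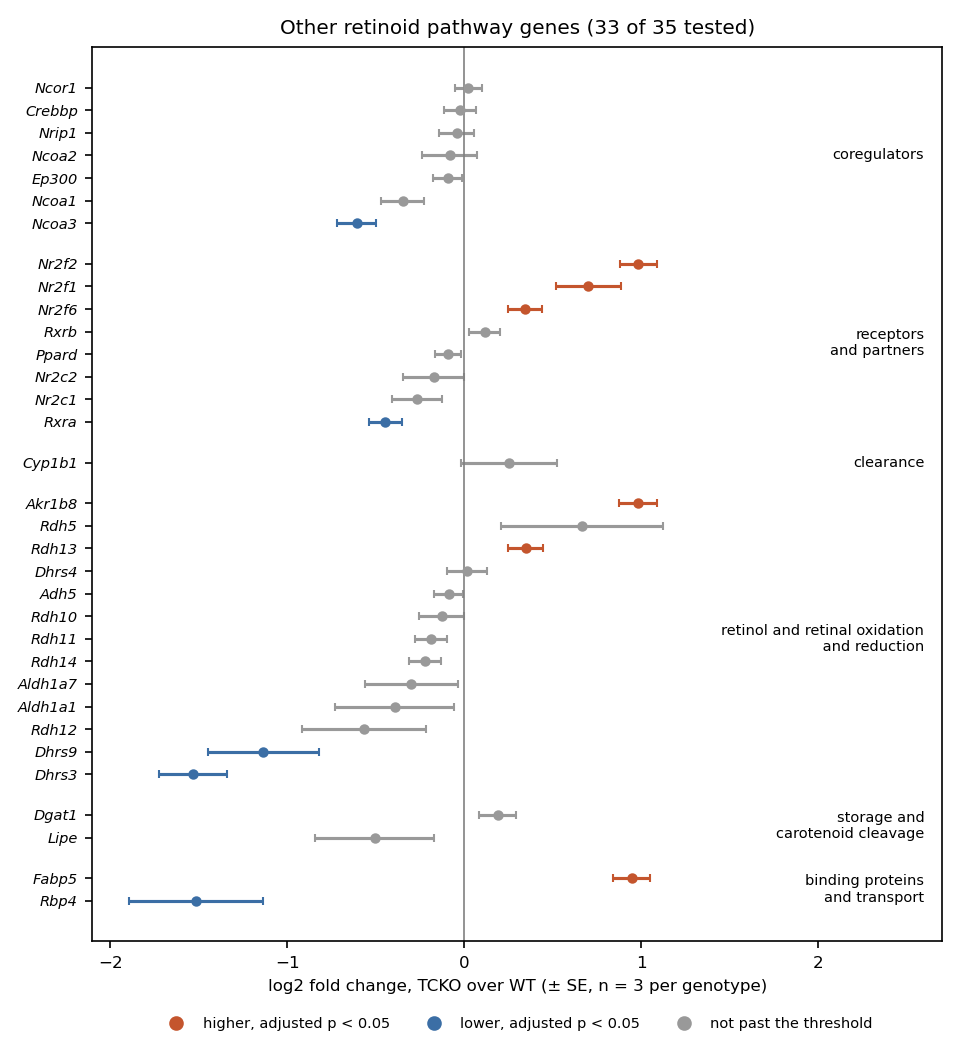
Log2 fold change of TCKO over WT with its SE (x axis) for 33 of the 35 tested pathway genes outside the 9, grouped by role, in orange where higher and blue where lower at an edgeR adjusted p under 0.05 and grey otherwise. The lowest are Dhrs3 at -1.53 and Rbp4 at -1.51, and the highest are Nr2f2 at 0.98, Akr1b8 at 0.98 and Fabp5 at 0.95.

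Fabp5, Akr1b8, Nr2f2 and Dhrs3 passed the threshold in all 16 fits, with edgeR or DESeq2 adjusted p-values up to 0.0328, 0.0402, 0.0348 and 0.0399. The other calls named here were less stable. Ncoa3 passed in 15 of 16, Rxra in 12, Nr2f1 in 11, Nr2f6 in 7, Rdh13 in 6, and Dhrs9 in 8 and Rbp4 in 6 of the 15 fits that tested them. Over all fits the highest adjusted p of these genes was between 0.112, for Ncoa3, and 0.259, for Rdh13. Only 4 of the 12 calls were thus kept in every fit. With 1 library left out at a time, 3 to 6 of the 35 genes passed as higher and 2 to 4 as lower, fewest higher without WT replicate 2, TCKO replicate 1 or TCKO replicate 2 (3 each) and fewest lower without WT replicate 1 or TCKO replicate 2 (2 each).

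A list of 15 genes that retinoic acid is known to induce in other systems was also examined, none of them among the 9 and 6 of them also on the pathway list. Of these, 6 were tested, 1 rose and 1 fell (33.3% against 17.7% of all tested genes, a share that rests on 2 genes). Dhrs3 fell, as above, and Meis1, a homeodomain cofactor, rose from 9.15 ± 0.704 to 16.7 ± 3.23 CPM, by 0.87 ± 0.17 on the log2 scale (edgeR adjusted p = 0.0120; up to 0.104 over all fits, and not passed without WT replicate 1). Nrip1, Meis2 and Tgm2 did not pass. Cyp26a1, Stra8, Lrat, Hoxb1 and Cdx1 had at most 1 count in any library.

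Crabp1, Crabp2 and Aldh1a2 are also expressed by fibroblasts outside bone, so markers of cells that a calvarial digest could hold were read beside them. Dermal fibroblast markers (5 genes, 4 tested) summed to 41.0 to 70.8 CPM in WT and 122.8 to 229.4 CPM in TCKO. Of these, Lrig1 and Dpp4 were called higher. Twist2 was not called and overlapped between genotypes, and Pi16 had at most 1 count in any library. The sum was highest in TCKO replicate 3 through Dlk1, which was not called and had 35.96, 31.32 and 166.4 CPM in the TCKO libraries. Lrig1 had 86.64, 88.50 and 57.99 CPM there, lowest in replicate 3 as Crabp1 was. Dpp4, with 17, 13 and 26 counts in the TCKO libraries, was instead highest in replicate 3 (1.94, 1.62 and 2.92 CPM). Markers of meningeal fibroblasts (6 genes, 4 tested) summed to 354.7 to 418.3 CPM in WT and 286.8 to 302.6 CPM in TCKO. Of these, Foxc1 and Foxd1 were lower at an edgeR adjusted p under 0.05, Foxd1 by more than 2-fold. Zic1, the most abundant of them, and Tbx18 did not pass and overlapped between genotypes. The meningeal genes Slc6a13 and Ptgds had at most 1 and 4 counts. Chondrocyte markers were called lower in 5 of 5 and summed to 6168 to 8038 CPM in WT and 678.9 to 956.3 CPM in TCKO. Skeletal muscle markers (5 genes) summed to at most 20.001 CPM in WT and 34.8 to 77.9 CPM in TCKO, where only Acta1 was called higher, and Pax7 had 0 counts. Schwann cell and neuron markers (5 genes) summed to 76.4 to 99.4 CPM in WT and 75.9 to 85.2 CPM in TCKO, with S100b, which cartilage also expresses, called lower of 3 tested. Haematopoietic markers (2 of 5 called lower) summed to 385.6 to 689.6 CPM in WT and 153.7 to 524.7 CPM in TCKO. The sum, most of it Lyz2, was lowest in replicate 3 of each genotype. Adgre1 alone did not follow, with 14.3, 13.0 and 24.4 CPM in WT and 7.19, 5.22 and 6.51 CPM in TCKO. Endothelial (4 genes) and epithelial markers (5 genes) summed to at most 2.24 and 0.727 CPM in any library. The part of these cells in the retinoid differences was not tested.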

How the data were processed

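Poly(A) RNA-seq libraries of WT and TCKO primary calvarial osteoblasts were used, 3 per genotype, with groups and replicate numbers from the sample titles. Reads had been aligned by the authors to GRCm38 (Ensembl annotation) with STAR 2.7.0e and counted per gene with featureCounts 2.0.0, per the submitters' processing notes, and the deposited values are raw counts. The gene length column (bp) is also the authors'. Whether counting used the strand is not given in the sources used here. No column was left unassigned (0), and gene symbols were matched for 99.4% of identifiers.

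Counts were filtered with filterByExpr, scaled with TMM and tested with the quasi-likelihood test of edgeR 4.0.16 in R 4.3.3, with genotype as the only term and Benjamini-Hochberg adjustment over 13826 genes. Standard errors are the log2 fold change divided by the root of its F statistic. Log2 differences within replicates used a prior count of 2. The members and gene lists were chosen with earlier results of these data known. Named genes are the 9 members, genes of the lists that passed the threshold or that a result turns on, and the 3 genes most like the member of highest and of lowest fold change. Fits of edgeR and DESeq2 were run on simulated data with known changes. The simulated libraries were drawn independently, without the difference of replicate 3, so they do not test its effect.

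The alternatives were DESeq2 size factors in edgeR, all genes with a count of at least 1, a minimum mean count of 50, DESeq2 1.42.0 on the same genes and on genes over 0.24 RPKM (the study's cutoff), a replicate block, replicates 1 and 2 summed with and without that block, each library left out, and replicate 3 of both genotypes left out. Deviations from the genotype means in same-numbered libraries correlated across genes (r = 0.204, 0.214 and 0.347). Replicates 1 and 2 also correlated crosswise (0.188 and 0.225), so no pairing by number was shown between them. Only replicate 3 was set apart from replicates 1 and 2 in both genotypes. The main fit and its standard errors use no pairing, and the replicate block was run only as an alternative. Some genes of the lists enter the counts but are not reported here by name.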

Additional observations from a re-analysis of the deposited data

How the results depend on the processing

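The fold changes of the 8 tested retinoid genes and of the list genes that passed the threshold kept their direction in each of the 15 alternatives that tested them. Aldh1a2, Aldh1a3, Dhrs9 and Rbp4 were tested in 14, and the fold changes of list genes that did not pass were not compared across alternatives. The replicate block moved the genes called to 487 higher and 524 lower and Cyp26b1 to a log2 fold change of -1.34, moved no count by over 1.5 times and changed no call of these genes. Without a low-count filter, 2 of the 9 genes were called lower (Adh7 and Cyp26b1). At a mean of at least 50 counts, 255 genes were called higher and 288 lower, and 3 other pathway genes passed as lower. With replicates 1 and 2 summed, which leaves 2 samples per genotype, 178 and 146 genes were called, 3 pathway genes passed as higher and 1 as lower, and 0 response genes as higher. Adding the replicate block to that gave 3, 2 and 0. Without replicate 3 of both genotypes, 663 and 627 genes were called, 10 pathway genes passed as lower, 2 response genes as higher, and 2 of the 9 genes were called lower. Over all fits that left libraries out, 295 to 663 genes were called higher and 300 to 627 lower, 3 to 7 pathway genes passed as higher and 2 to 10 as lower, 0 to 2 response genes as higher and 1 as lower, and 3 of the 9 genes were called higher and 1 to 2 lower. With 1 library left out at a time, 3 to 6 pathway genes passed as higher and 2 to 4 as lower. The cause of these shifts was not tested. Genes with few counts, such as Rarb and Aldh1a2, are limited by depth.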
